A study of Mus musculus with 3 samples.

Results

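The nuclear-encoded genes of the mitochondrial respiratory chain were described in RNA bound to chromatin in mouse macrophages. Genes were taken when they had a protein-coding transcript and a symbol of a subunit of complex I (Nduf), II (Sdh), III (Uqcr and Cyc1), IV (Cox4 to Cox8) or V (Atp5). This gave 87 of the 55536 genes in the tables, with 86 symbols, because Atp5o has a second gene identifier that marks a readthrough locus. Complex I held 38 of them, complex II 4, complex III 9, complex IV 18 and complex V 18.

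All 3 libraries came from bone-marrow-derived macrophages of C57BL/6J mice under a single condition. The cells had received 100 ng/ml Lipid A for 12 h, a washout of 12 h, and 100 ng/ml Lipid A again for 10 min before the chromatin fraction was taken and its RNA depleted of ribosomal RNA. There was no untreated group, so no comparison between conditions was possible and the genes were compared with each other and between libraries. The libraries are numbered as biological replicates in the labels, with the same donor entry, and nothing says that they came from separate mice, so the spread between them may be partly technical.

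The respiratory chain passes electrons from NADH (complex I) and succinate (complex II) through complex III and cytochrome c to oxygen at complex IV. Complexes I, III and IV pump protons across the inner mitochondrial membrane, and complex V, the ATP synthase, uses the gradient to make ATP. Complex II is the only one of them encoded wholly in the nucleus. The others also carry subunits made from mitochondrial DNA, so their genes are expressed from both genomes. Macrophages stimulated through TLR4, the receptor for Lipid A, are known for a shift from respiration toward glycolysis. RNA on chromatin is enriched for nascent and incompletely spliced transcripts and is not a measure of mRNA or protein in the cell.

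Library totals were 13538605, 19949204 and 18224466 expected counts in replicates 1, 2 and 3, of which the 87 genes took 0.0822%, 0.0816% and 0.0737%. RNA input differed between the libraries, at 1 µg, 250 ng and 500 ng. All 8 macrophage markers were detected, with a summed level of 716 to 975 TPM (a level scaled for transcript length and library total). None of the 5 T cell, 5 B cell, 6 neutrophil or 5 fibroblast markers was detected, and of 6 muscle markers only Tnni3 was, at 37.8 ± 2.15 TPM (SD, n = 3), while the muscle actins Actc1 and Acta1 were at 0. Of 5 erythroid markers only Alas2 was detected, at 12.2 ± 2.70 TPM. A smaller number of cells of a type and less RNA per cell cannot be told apart in such bulk samples.

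Nearly all common subunits of the 5 complexes were represented on chromatin, and forms known from muscle, heart, lung or testis were low or listed at 0. A gene was called detected at 1 TPM or more in every library. By that rule 74 of 87 respiratory chain genes were detected, or 34 of 38 in complex I, 4 of 4 in complex II, 9 of 9 in complex III, 11 of 18 in complex IV and 16 of 18 in complex V. Over all 22028 protein-coding genes the share detected was 45.6%. Another 10 genes lay between, and 3 were under 0.1 TPM in every library. The median over the 87 genes, detected or not, was 2.93 ± 0.12 on the log2(TPM + 0.1) scale. It was above the -0.43 ± 0.13 of all 22028 protein-coding genes and below the 4.04 ± 0.29 of 83 cytoplasmic ribosomal protein genes. The 10050 protein-coding genes kept for being detected had a median of 3.60 ± 0.11. The 87 genes summed to 971, 1193 and 955 TPM in replicates 1, 2 and 3, which was 0.353% ± 0.031 of the TPM of protein-coding genes.

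**Figure D1:**
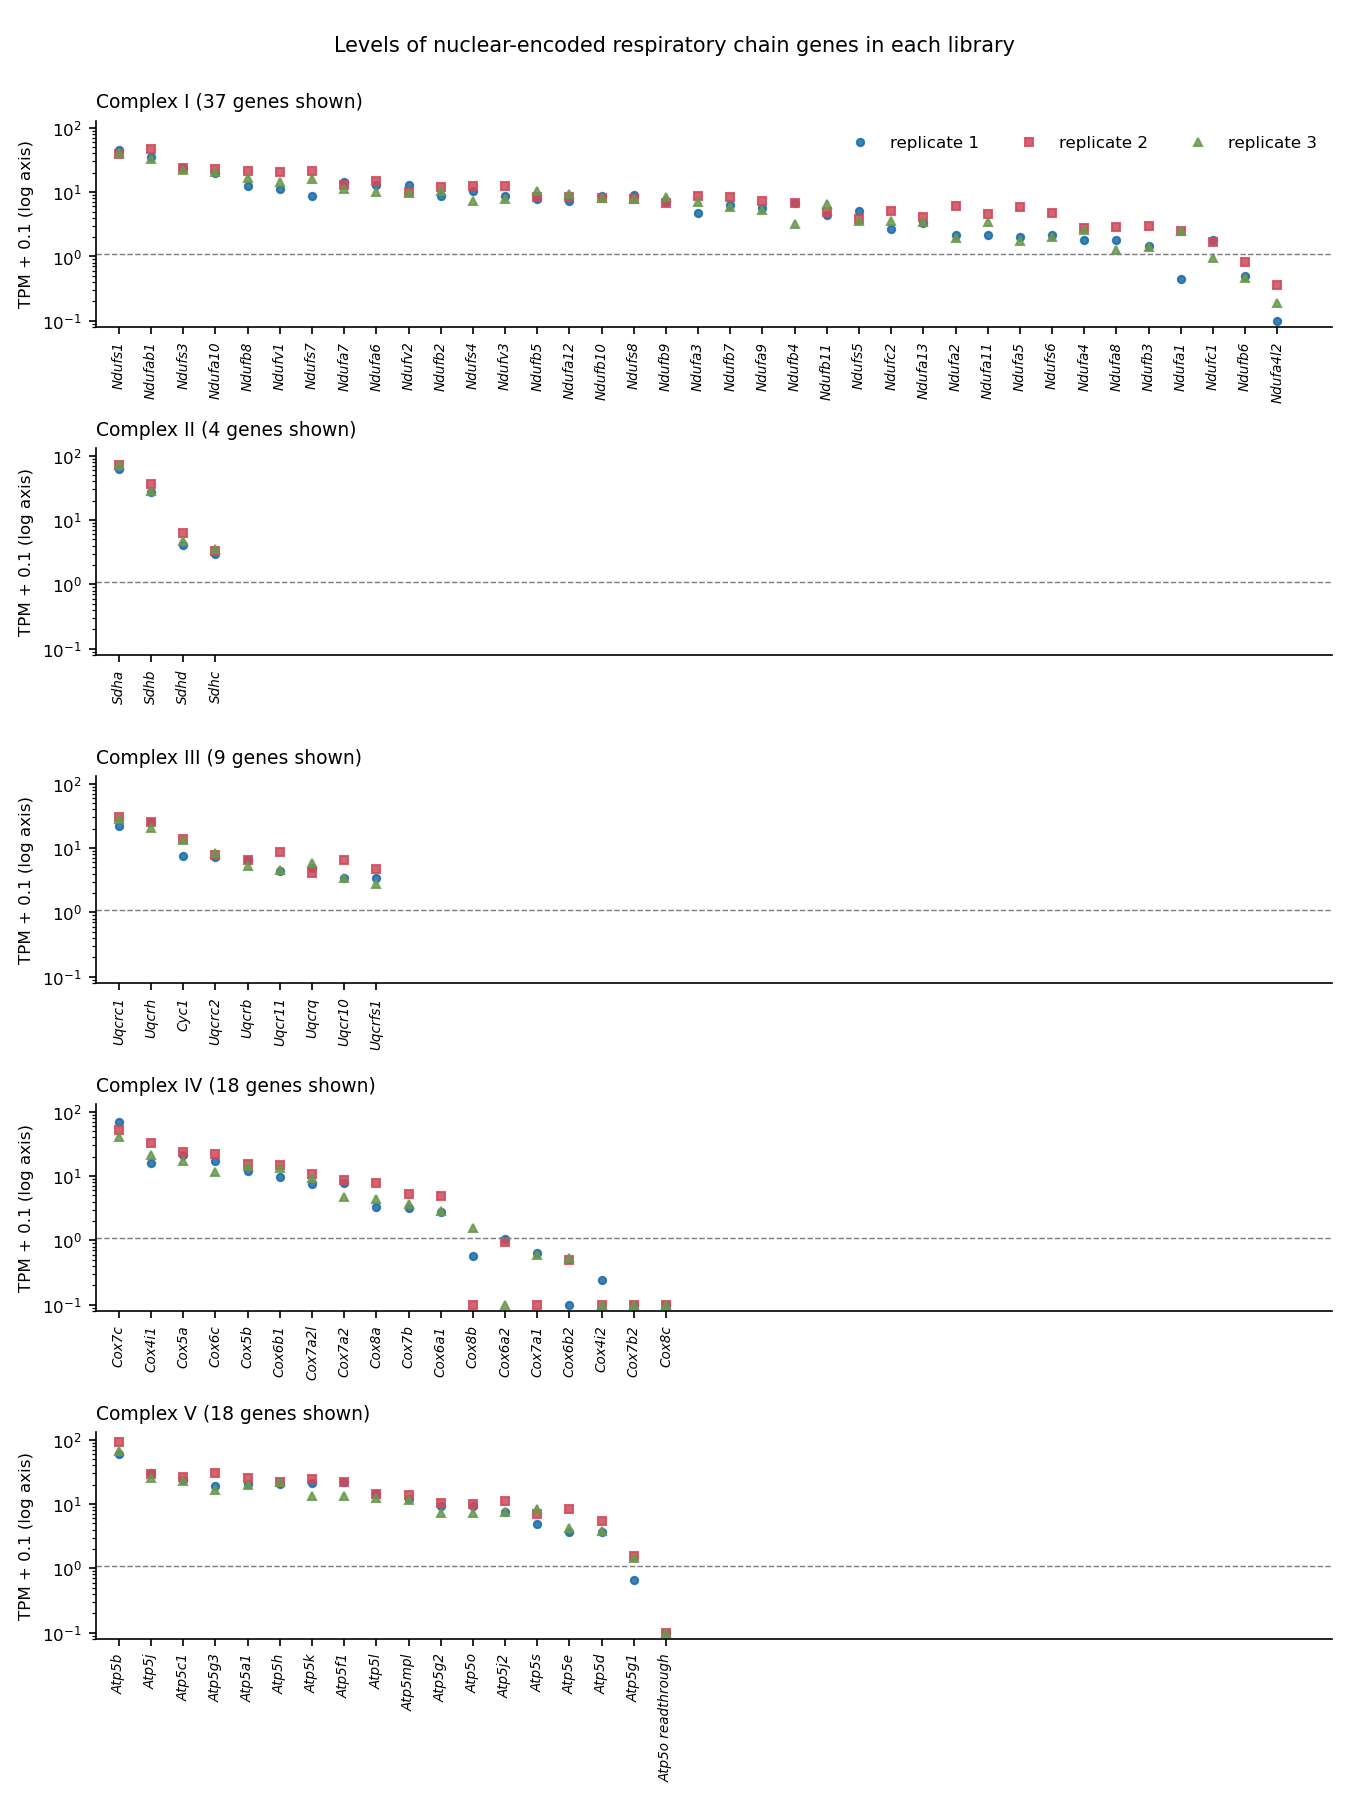
TPM + 0.1 on a log axis for 86 of the 87 genes in replicates 1, 2 and 3, ordered by mean level within each complex; the dashed line marks the detection level of 1 TPM. Atp5b and Sdha are at the top, and the 7 tissue-restricted genes of complex IV lie at the right of its panel, with no gene among them above the line in every library.

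Complex I is the entry point for electrons from NADH, and its nuclear genes fall into 7 core subunits, which carry the flavin and iron-sulphur clusters or line the path to quinone, and accessory subunits around them. Ndufs1, the largest core subunit of the NADH-oxidising arm, was highest at 45.6, 39.2 and 40.5 TPM in replicates 1, 2 and 3. Ndufab1, which also serves as the mitochondrial acyl carrier protein, was at 35.0, 46.1 and 33.1 TPM. The ranges of Ndufs1 and Ndufab1 overlapped. All 7 core genes were detected, with a median of 4.03 ± 0.35 in log2(TPM + 0.1) against 2.60 ± 0.16 for the 29 accessory genes, of which 26 were detected. In each library the core median was above the accessory median.

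The low end of complex I held small accessory genes and a relative of an assigned subunit. Ndufb6, an accessory membrane-arm subunit, was at 0.39, 0.73 and 0.36 TPM on a mean of 3.3 expected counts. Ndufa4l2, a hypoxia-induced relative of Ndufa4, was at 0, 0.26 and 0.09 TPM, while Ndufa4 itself, first assigned to complex I and since found with complex IV, was at 1.72, 2.67 and 2.50. Ndufa1 and Ndufc1 each missed the detection rule in 1 library, at 0.34 TPM in replicate 1 and 0.85 TPM in replicate 3. Small genes such as these rest on few reads: 36 of the 87 genes had a mean of 50 expected counts or fewer, and 7 had 500 or more.

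Complex II oxidises succinate and is also an enzyme of the citric acid cycle, and here its catalytic genes stood far above its anchor genes. Sdha (ENSMUSG00000021577.14, chromosome 13, mm10 bases 74322254 to 74350280, minus strand), which carries the flavin, was at 62.8, 70.7 and 72.1 TPM. Sdhb, which carries the iron-sulphur clusters, was at 27.5, 36.7 and 28.1 TPM. The membrane anchors were lower in every library, with Sdhd at 3.96, 6.10 and 4.63 TPM and Sdhc at 2.87, 3.26 and 3.51. The order Sdha, Sdhb, Sdhd held in all 3 libraries, and Sdhd was above Sdhc in each of them. In the read-based tables, a second deposited estimate of the same libraries, Sdhc was at 15.0 ± 3.18 TPM and Sdhd at 5.45 ± 0.73, so the order of the anchors depended on the table.

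Complex III takes electrons from ubiquinol to cytochrome c, and all 9 of its nuclear genes were detected, with means from 3.55 to 26.8 TPM. Uqcrc1, a core protein of the matrix side, was at 21.6, 30.8 and 28.0 TPM. Uqcrh, the hinge protein that binds cytochrome c1, was at 25.1, 25.7 and 20.3 TPM, overlapping Uqcrc1. Cyc1, cytochrome c1 itself, was at 7.45, 13.6 and 13.2 TPM. The iron-sulphur protein gene Uqcrfs1 was lowest, at 3.31, 4.68 and 2.67 TPM, and Uqcr10, a small subunit, was next, at 3.37, 6.33 and 3.32. These last ranges overlapped. Uqcrc2, the partner of Uqcrc1 in the core, had 7.61 ± 0.59 TPM in the gene tables, but the read-based tables put it at 28.3 ± 2.01, against 32.6 ± 3.88 for Uqcrc1.

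Complex IV reduces oxygen, and several of its nuclear subunits exist in a common form and a form known from particular tissues. The 10 common-form genes were all detected, with a median of 3.65 ± 0.25 in log2(TPM + 0.1), and none of the 7 tissue-restricted genes was, with a median of -2.90 ± 0.73. Cox7c (ENSMUSG00000017778.14, chromosome 13, mm10 bases 86044816 to 86046904, minus strand), a small common subunit with no tissue form in this set, was highest at 69.1, 51.1 and 40.4 TPM. Cox4i1, the common form of the largest nuclear subunit, was at 16.1, 32.4 and 20.9 TPM, and Cox5a, which binds a thyroid hormone metabolite in the purified enzyme, at 21.3, 23.5 and 17.1. Cox7c was above both in every library. Cox7a2l, known as a supercomplex factor, was at 8.96 ± 1.58 TPM.

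In each pair of alternative forms the common gene was above the restricted gene in all 3 libraries by the gene tables. Cox4i2, the lung and hypoxia form of subunit 4, was at 0.14, 0 and 0 TPM. Of the heart and muscle forms, Cox6a2 was at 0.94, 0.83 and 0 TPM, where its common form Cox6a1 was at 2.68, 4.82 and 2.79. Cox6b2, the testis form, was at 0, 0.40 and 0.44 TPM, and its common form Cox6b1 at 9.38, 14.6 and 13.1. Cox7b2 and Cox8c, both known from testis, were at 0 expected counts in all 3 libraries, and a count of 0 allows up to 0.222, 0.150 and 0.165 CPM in replicates 1, 2 and 3 (3 counts of the library total, covering counting error only). Their common relatives were detected, Cox7b at 3.11, 5.08 and 3.52 TPM and Cox8a at 3.23, 7.54 and 4.36.

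The levels of several restricted forms differed between the tables. Cox7a1, the heart and muscle form of subunit 7a, was at 0.53, 0 and 0.50 TPM by the gene tables, on 2, 0 and 2 expected counts, but at 10.2, 8.20 and 8.62 TPM in the read-based tables. The common form Cox7a2 had 7.78, 8.45 and 4.63 TPM in the gene tables, and its read-based values were 27.1, 30.4 and 26.8. Cox8b, the muscle form of subunit 8, was at 0.46, 0 and 1.43 TPM against 2.35, 3.19 and 5.39 in the read-based tables, and Cox8a was at 22.9, 20.4 and 16.7 there. The common form was thus higher in every library of both kinds of table, and 3 of the 7 restricted forms, Cox7a1, Cox8b and Cox7b2, were detected by the read-based tables but not by the gene tables. In the read-based tables Cox7b2 was at 1.33 ± 0.31 TPM, Cox6a2 at 1.92 ± 0.88, Cox4i2 at 0.66 ± 0.25 and Cox8c at 0.

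**Figure D2:**
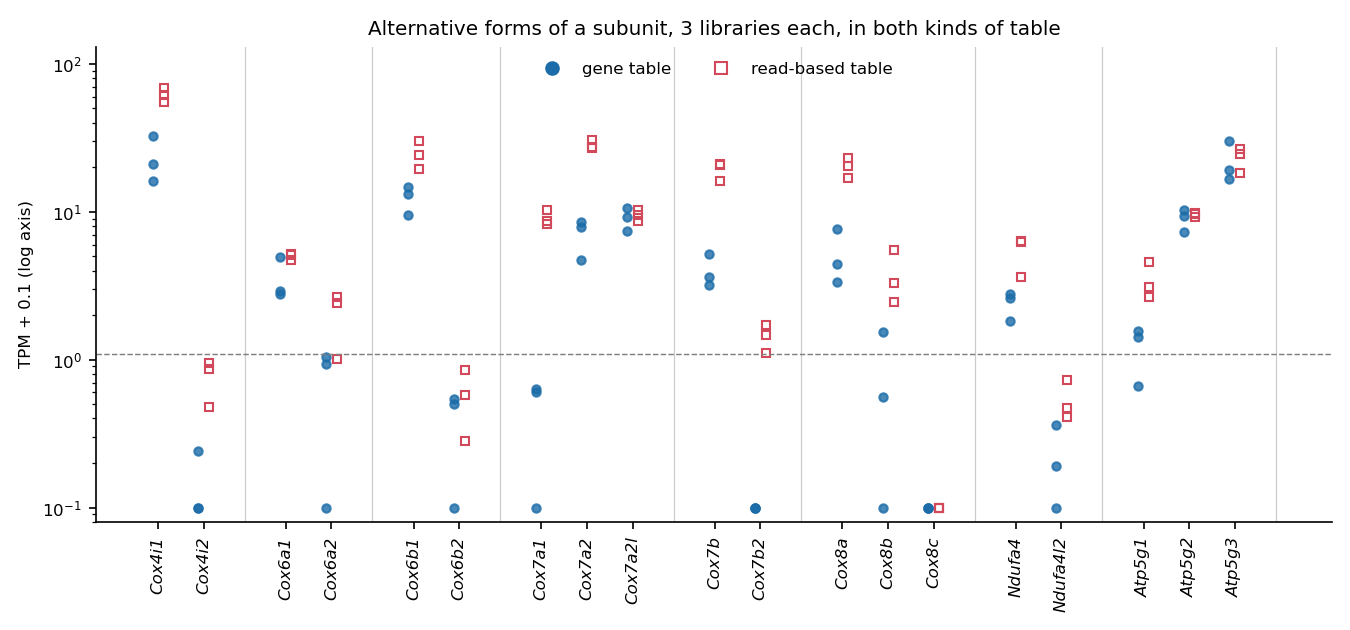
TPM + 0.1 on a log axis for the alternative forms of 8 subunits, with 3 points per gene and table, filled for the gene tables and open for the read-based tables; the dashed line marks 1 TPM. Cox7a1 is under the line by the gene tables and at 8.20 to 10.2 TPM by the read-based tables, below Cox7a2 in both.

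The sequences upstream of these 4 genes are shown because the common and muscle forms differed in level while encoding the same subunit position. They are RefSeq sequences of build GRCm38.p6, printed 5′ to 3′ on the gene's strand and ending just before the first annotated start, with each CG dinucleotide in capitals. They lie at chr9:79759879-79760103 on the minus strand for Cox7a2, chr7:30183921-30184143 on the plus strand for Cox7a1, chr19:7217617-7217866 on the minus strand for Cox8a and chr7:140900447-140900696 on the minus strand for Cox8b, and no annotated exon of another gene overlaps them.
Cox7a2: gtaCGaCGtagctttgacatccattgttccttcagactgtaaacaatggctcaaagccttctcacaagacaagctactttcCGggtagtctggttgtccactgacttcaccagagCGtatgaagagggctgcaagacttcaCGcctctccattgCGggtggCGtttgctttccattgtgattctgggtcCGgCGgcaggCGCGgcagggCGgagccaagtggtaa
Cox7a1: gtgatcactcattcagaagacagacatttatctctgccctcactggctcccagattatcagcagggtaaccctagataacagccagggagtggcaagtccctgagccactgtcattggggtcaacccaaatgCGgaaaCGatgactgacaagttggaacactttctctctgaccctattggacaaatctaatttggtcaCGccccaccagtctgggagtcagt
Cox8a: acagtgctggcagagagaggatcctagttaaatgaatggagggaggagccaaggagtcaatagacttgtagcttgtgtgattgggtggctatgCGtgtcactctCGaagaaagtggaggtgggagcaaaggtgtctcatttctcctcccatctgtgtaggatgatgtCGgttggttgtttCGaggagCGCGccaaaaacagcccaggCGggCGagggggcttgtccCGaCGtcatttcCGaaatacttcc
Cox8b: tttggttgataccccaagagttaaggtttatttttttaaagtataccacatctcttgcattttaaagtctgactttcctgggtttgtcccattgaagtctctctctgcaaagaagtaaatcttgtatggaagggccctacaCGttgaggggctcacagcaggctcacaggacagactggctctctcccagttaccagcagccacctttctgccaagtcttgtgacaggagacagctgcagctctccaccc
The Cox7a2 stretch held 12 CG dinucleotides in 225 bases and the Cox7a1 stretch 3 in 223. Cox8a held 11 in 250 bases and Cox8b 1 in 250. Over the 300-base RefSeq promoter windows the counts were 20 for Cox7a2, 7 for Cox7a1, 19 for Cox8a and 2 for Cox8b. The median was 21 for 8004 detected protein-coding genes and 14 for 16522 protein-coding genes with a window. Pairs with a testis form did not share this direction throughout. Cox6b1 had 17 and Cox6b2 10, but the common form Cox7b had 5 and Cox7b2 10.

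Motifs of factors known for respiratory genes were counted in the same 300-base windows, which were found for 67 of the 86 symbols. The motif CCGGAAG, bound by ETS factors such as GABP, was present on either strand in 15 windows, or 22.4%, close to the 21.3% of detected protein-coding genes. GCGCATGC, the motif of NRF1, was in 10 windows, or 14.9%, against 6.10% of detected and 3.76% of all protein-coding genes. AAGATGGC, a YY1 motif, was in 8 windows, or 11.9%, against 5.47% and 3.29%. Complex I supplied 33 of the 67 windows and 7 of these 8 genes, namely Ndufa3, Ndufa9, Ndufb8, Ndufc1, Ndufs4, Ndufs6 and Ndufs7, and the remaining gene was Atp5j2. CCAAT was in 43.3% of the windows against 39.0% of detected genes, and TATAAA in 10.4% against 6.65%. No motif, on either strand, contains another, and a match describes the sequence only.

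Complex V makes ATP, and the levels of its genes differed widely within the F1 head and within the c ring. In the F1 head, where ATP is formed, Atp5b (ENSMUSG00000025393.12, chromosome 10, mm10 bases 128083273 to 128090391, plus strand), the catalytic beta subunit, had the highest mean of all 87 genes in the gene tables, at 59.6, 91.6 and 66.8 TPM. Atp5a1, the alpha subunit that alternates with beta in the head, was at 20.1, 24.9 and 19.6 TPM, and Atp5c1, the central gamma shaft, at 23.6, 25.8 and 22.5. By all transcripts Atp5b was above both in every library, although alpha and beta are present in equal number in the enzyme. By protein-coding transcripts alone Atp5b was below both in every library. It was then at 11.8, 15.9 and 12.0 TPM, with Atp5a1 at 13.9, 19.4 and 15.2 and Atp5c1 unchanged. Atp5b hosts the small RNAs Snord59a and Mir677 within its span, and Atp5d, the delta subunit of the head, was far lower at 3.52, 5.32 and 3.75 TPM. Sdha and Cox7c exceeded Atp5b in replicate 1, and Sdha did in replicate 3. In the read-based tables Atp5b was at 65.7 ± 3.72 TPM and Atp5a1 at 26.9 ± 2.51, and Sdha at 119 ± 14.6, Ndufs1 at 82.0 ± 2.11 and Cox7c at 74.8 ± 12.4 had higher means than Atp5b.

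Atp5j, a peripheral stalk subunit whose gene overlaps that of the ETS factor GABPA on the opposite strand, was at 29.7, 29.2 and 25.2 TPM. The other stalk genes were Atp5h at 21.5 ± 0.76 TPM, Atp5f1 at 19.1 ± 4.92 and Atp5o at 8.77 ± 1.45. The readthrough locus annotated as Atp5o was at 0 in every library of both tables. The c ring, the rotor of the proton channel, is encoded by 3 genes with the same mature protein. Atp5g3 was at 19.0, 30.0 and 16.6 TPM, Atp5g2 at 9.31, 10.2 and 7.22, and Atp5g1 at 0.56, 1.47 and 1.32. By all transcripts the order Atp5g3, Atp5g2, Atp5g1 held in every library without overlap, and it was the same by the means of the read-based tables, at 23.1, 9.46 and 3.34 TPM. By protein-coding transcripts alone Atp5g2, at 9.30, 10.2 and 7.22 TPM, was above Atp5g3, at 3.49, 7.07 and 3.84, in every library. Atp5g1 stayed lowest, at 0.56, 1.46 and 1.32 TPM.

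Between complexes, medians were highest in complexes V and II and lowest in complex IV. In log2(TPM + 0.1) they were 3.70 ± 0.11 for complex V, 3.62 ± 0.27 for II, 2.88 ± 0.11 for I, 2.74 ± 0.19 for III and 2.12 ± 0.48 for IV. Complex V was above complex I in all 3 libraries, by 0.82 ± 0.07, and complex II was above it by 0.74 ± 0.16. Complexes II and V differed by -0.08 ± 0.20, with the sign changing between libraries. Complex I was above complex III by 0.13 ± 0.12, a difference that changed sign when the mean over genes replaced the median (complex III higher by 0.44 ± 0.07). Complex IV lay 0.76 ± 0.37 below complex I, but by the read-based tables the difference was 0.016 ± 0.16 in the other direction. Of the 18 genes of complex IV, 7 were tissue-restricted, and its 10 common forms had a median above that of complex I. Complex II has only 4 genes, so its median is the middle of a set that ran from 3.21 to 68.5 TPM.

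A large part of these levels came from transcripts annotated with a retained intron. Over the 87 genes, such transcripts held 43.8% ± 0.47 of the TPM, against 37.2% ± 0.56 in the detected protein-coding genes and 51.5% ± 1.15 in the ribosomal protein genes. By expected counts, which weigh long transcripts more, the values were 44.8% ± 0.89, 23.8% ± 0.77 and 54.4% ± 0.90. In TPM the share was highest in complex I, at 51.6% ± 1.22, followed by complex III at 42.6% ± 1.00, IV at 39.6% ± 3.34, V at 38.9% ± 3.52 and II at 38.0% ± 1.54. By expected counts it was highest in complex IV, at 54.2% ± 2.06, and lowest in complex II, at 14.8% ± 0.53, so the order of complexes depended on the measure. Transcripts that carry the coding sequence held 42.9% ± 0.63 of the TPM, and those annotated for nonsense-mediated decay 1.04% ± 0.27, compared with 4.28% ± 0.13 in detected protein-coding genes.

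**Figure D3:**
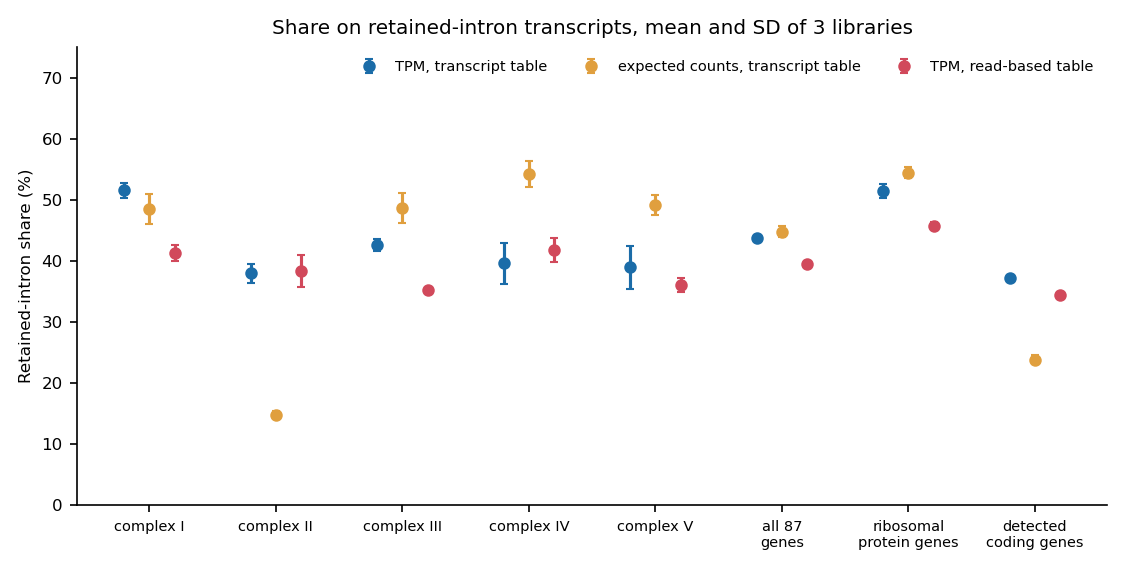
Percent of each set's signal on retained-intron transcripts, as mean and SD of 3 libraries, by TPM and expected counts of the transcript tables and TPM of the read-based tables. All 87 genes together lie above detected coding genes by each measure, and complex II drops to 14.8% by expected counts.

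Shares of single genes were far from uniform. Ndufa7, an accessory subunit of complex I, had 96.4%, 90.9% and 85.3% of its TPM on retained-intron transcripts in replicates 1, 2 and 3. Ndufa6 was at 91.6%, 87.9% and 79.1%, and Ndufa12 at 83.0%, 86.3% and 83.5%. Both are accessory genes of complex I as well. The next were Cox5a, at 82.7% ± 6.38, and Atp5f1, the b subunit of the ATP synthase stalk, at 79.2% ± 3.36. Such a transcript was annotated for 55.2% of the 87 genes, against 63.1% of detected protein-coding genes. Of 47 genes with such a transcript in the annotation and a mean of 1 TPM or more, 33 had over 50% of their TPM there. The matching share over all detected protein-coding genes was not computed, so this count cannot be read as a trait of the set. Cox7c, in contrast, has no such transcript annotated, and 52.2 of its 53.5 TPM came from coding transcripts, the highest coding level of the set, above Sdha at 24.6 ± 0.33 and Atp5c1 at 24.0 ± 1.71.

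The level of a gene moved with its annotation. The 48 genes with an annotated retained-intron transcript had a median of 3.47 ± 0.25 in log2(TPM + 0.1), with 46 detected. The 39 without had 1.93 ± 0.28, with 28 detected. Those 39 included the restricted forms Cox4i2, Cox6a2, Cox7a1, Cox7b2, Cox8b and Cox8c, as well as Ndufa4l2 and the Atp5o readthrough locus. Of the restricted forms only Cox6b2 was among the 48. Counting coding transcripts alone, the same groups had 1.84 ± 0.24 and 1.86 ± 0.17. Across the 77 genes with a mean of 1 TPM or more, the number of annotated transcripts and the TPM had a Spearman correlation of 0.69, and the number of annotated transcripts and the coding TPM 0.26. These are correlations across genes of the same libraries, described without a test. By coding transcripts, an alternative chosen after seeing the data, the medians were 2.81 ± 0.29 for complex II, 2.21 ± 0.35 for III, 2.16 ± 0.16 for V, 1.72 ± 0.21 for I and 1.12 ± 0.21 for IV. Whether the number of annotated transcripts contributes to the level was not tested.

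**Figure D4:**
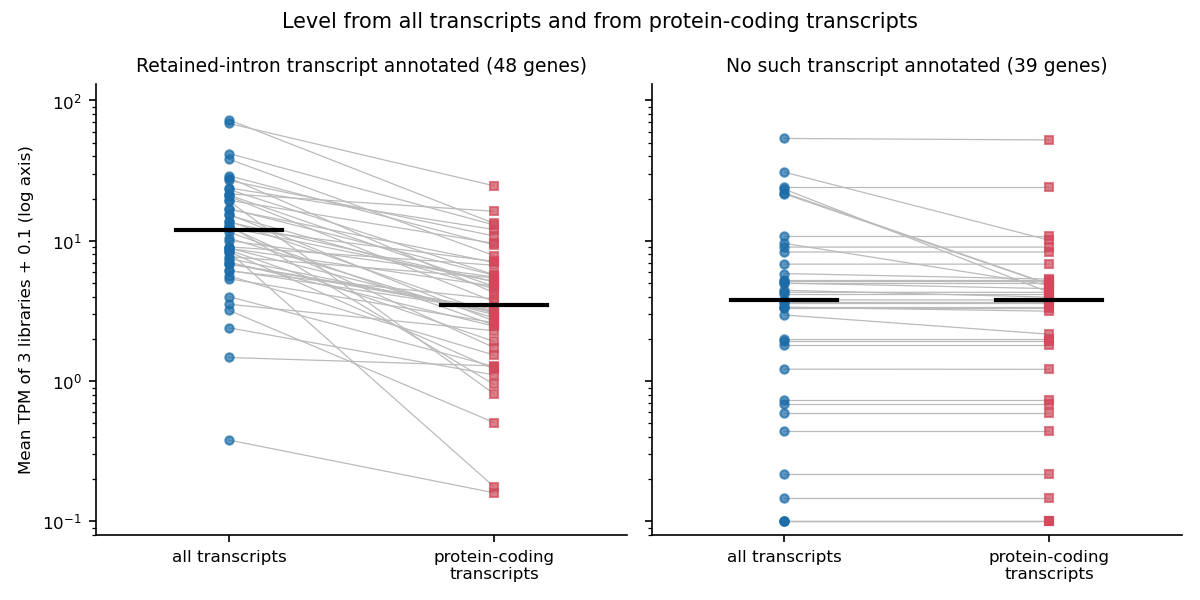
Mean TPM + 0.1 of each gene on a log axis from all of its transcripts and from protein-coding transcripts alone, for 48 genes with and 39 without an annotated retained-intron transcript; black bars are medians. The left group is higher by all transcripts, and the groups have similar medians by coding transcripts.

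The read-based tables gave higher levels for most of the set. They were above the gene tables for 78 of 87 genes, below for 7 and at 0 in both for 2. The share above was 89.7%, against 68.5% of all and 81.0% of detected protein-coding genes. Over the 77 genes with a mean of 1 TPM or more the median ratio was 1.55, against 1.30 for detected protein-coding genes. The highest ratios were those of Ndufc1 at 6.97, Cox7b at 4.94, Sdhc at 4.66 and Cox7a2 at 4.04. The lowest were those of Uqcrfs1 at 0.82, Ndufb7 at 0.85, Ndufb11 at 0.88 and Atp5e, the epsilon subunit of the F1 head, at 0.90. Ndufc1 had 1.70, 1.57 and 0.85 TPM in the gene tables against read-based values of 10.4, 8.13 and 10.2, so the ranges did not overlap. In all, 81 of the 87 genes were detected by the read-based values, where 56.2% of all protein-coding genes were.

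**Figure D5:**
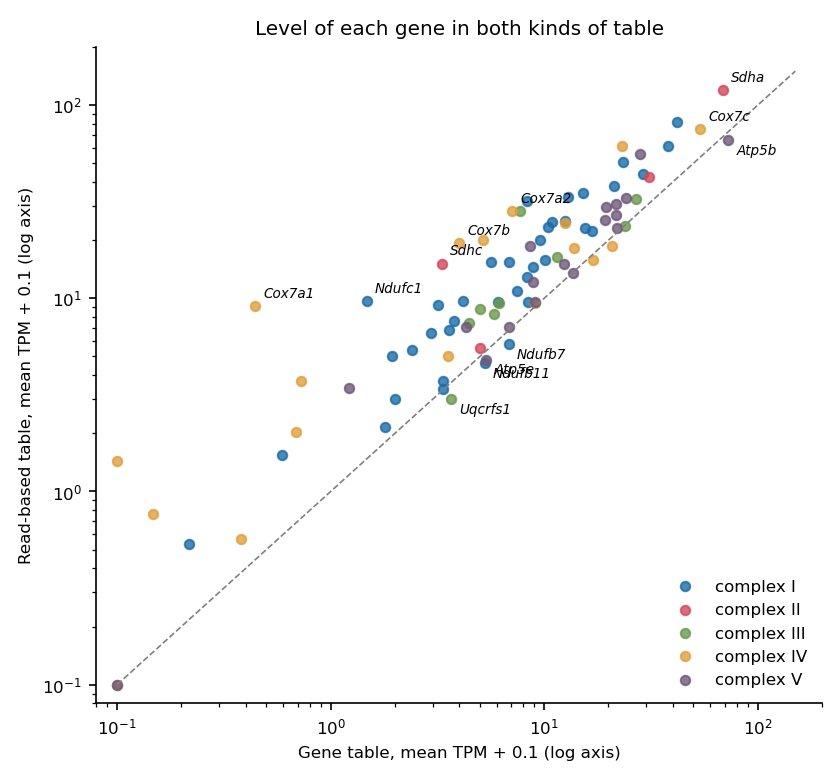
Mean TPM + 0.1 of each gene by the gene tables (x) and the read-based tables (y), both on log axes, coloured by complex; the dashed line marks equal values. Most points lie above the line, with Cox7a1 and Ndufc1 farthest from it among the labelled genes.

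No respiratory chain gene was called as varying between the libraries more than genes of its level. Each gene's counts were tested for fit to a common level (edgeR goodness of fit, Benjamini-Hochberg over all genes). Variation typical of genes of similar level, estimated from the same 3 libraries, was allowed for. By this test 0 of 75 respiratory chain genes tested were called, where 1.12% of the 14789 genes tested were. That count of 0 does not show that the 75 genes had equal levels in the libraries. At an unadjusted p under 0.05 there were 2 respiratory chain genes, or 2.67%, against 6.08% of all genes, and the test for outlying dispersion in DESeq2 also called 0. The genes were Cox7c, highest in replicate 1 (edgeR adjusted p = 0.462), and Ndufa2, an accessory subunit at 2.03, 5.92 and 1.85 TPM that was highest in replicate 2 (edgeR adjusted p = 0.740). On simulated counts the test recovered 16 of 100 genes changed 2-fold in a library and 89 of 99 changed 4-fold, so changes near 2-fold would mostly be missed. The changed genes were drawn from all genes tested. Recovery was not measured for the respiratory chain genes alone, many of which had low counts. The median SD of log2 CPM was 0.21 for the 75 genes and 0.19 for all genes tested.

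Small shifts shared by many of the genes were nonetheless visible. By TPM, 58 of 84 genes with a single highest library, or 69.0%, were highest in replicate 2, compared with 53.3% of detected protein-coding genes. After rescaling to nuclear protein-coding genes these were 45 of 84, or 53.6%, compared with 33.4%. By read-based TPM, 38 of 85, or 44.7%, were highest in replicate 2 and 36 in replicate 1, compared with 25.4% and 57.9% of detected protein-coding genes. Replicate 2 had the smallest RNA input and the largest library total, whose part in the shift was not tested. The ribosomal protein genes shared the shift, with 74 of 83 in replicate 2 by TPM.

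Assembly factors, which build the complexes and are not part of them, were mostly detected too. Of 17 factors of complex I, 16 were detected, led by Foxred1 at 31.5 ± 2.75 TPM, Dmac2 at 19.8 ± 3.37 and Acad9 at 12.8 ± 2.68, and Ndufaf2 was lowest at 0.87 ± 0.19. Of 21 factors of complex IV, 18 were detected, led by Surf1 at 28.3 ± 3.37, the copper chaperone Cox17 at 25.9 ± 3.36 and Cox16 at 22.6 ± 2.20, and the copper protein Sco2 was lowest at 0.21 ± 0.09. For complex II 3 of 4 were detected, with Sdhaf2, which inserts the flavin into Sdha, at 16.9 ± 0.63, Sdhaf3 at 2.30 ± 0.20, Sdhaf1 at 1.21 ± 0.09 and Sdhaf4 at 1.00 ± 0.24. For complex III 4 of 6 were detected, led by Uqcc1 at 13.4 ± 2.44, Ttc19 at 12.4 ± 1.29 and Uqcc3 at 2.87 ± 0.86, with Uqcc2 lowest at 1.18 ± 0.66. For complex V 3 of 4 were detected, Atpaf1 at 8.88 ± 0.99, Atpaf2 at 5.62 ± 1.56 and Tmem70 at 2.54 ± 0.40, while Fmc1 was at 0, 0.26 and 0 TPM. The read-based tables detected 17, 4, 6, 20 and 3 factors of complexes I, II, III, IV and V. There Ndufaf2 had a mean of 4.41 TPM and Uqcc2 7.34, while Sco2 was at 0.33 and Fmc1 at 0.29.

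Cytochrome c, the carrier between complexes III and IV, was represented by the somatic gene Cycs at 14.2, 8.17 and 9.90 TPM, and the testis gene Cyct was at 0. Its heme lyase gene Hccs was at 3.71 ± 0.81 TPM. Of 16 regulators of mitochondrial genes, 15 were detected, led by the nuclear receptor gene Esrra at 42.6 ± 7.80 TPM, the mitochondrial DNA polymerase gene Polg at 42.4 ± 5.09 and the coactivator gene Pprc1 at 25.4 ± 7.84. The coactivator gene Ppargc1a was the exception, at 0.06, 0 and 0.45 TPM. By the read-based tables all 16 were detected, with Ppargc1a at a mean of 1.59 TPM. Genes of the NRF1, YY1 and GABP factors named with the motifs were detected, with Nrf1 at 20.7 ± 2.24, Yy1 at 13.6 ± 0.71 and Gabpa at 12.3 ± 2.58 TPM. The 13 mitochondrially encoded subunits had a median of 5.11 ± 0.32 in log2(TPM + 0.1), above each of the 5 nuclear sets. Of the 13, 9 were highest in replicate 1, but only 8 were detected. The gene mt-Co2 was at 0 TPM in every library, mt-Co3 at 0.06, 0.04 and 57.86, and mt-Atp6 at 24.55, 0 and 0. Likewise mt-Nd3 was at 0, 28.5 and 0 TPM, and mt-Nd4l at 25.89, 0 and 0. By read-based values all 13 were detected, with mt-Co2 at a mean of 32.0 TPM. Several single levels in this set thus changed sharply between libraries. The median of the set was 5.39, 5.19 and 4.76 in replicates 1, 2 and 3.

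The genes were short and often shared a start region with a neighbour. Their median length was 7284 bp, against 24010.5 bp for detected protein-coding genes. For 24 of the 87 genes, or 27.6%, a protein-coding gene started on the opposite strand between 1000 bp upstream of the start and under 200 bp inside the gene, against 13.3% of detected protein-coding genes. Examples are Sdhd with Timm8b, Uqcrh with Lrrc41 and Ndufa7 with Rps28. A gene on the opposite strand overlapped 31 of the 87, or 35.6%, against 45.8%. The sources used here do not state whether reads were assigned by strand, so reads from such partners cannot be told apart, nor can reads shared with processed pseudogene copies.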

How the data were processed

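RNA-seq of the chromatin fraction was available as 3 libraries of 1 condition. Gene and transcript tables hold expected counts and TPM made by the authors on mm10 with GENCODE M21, per the file headers and labels; the deposited read-based transcript tables hold estimated counts and TPM, summed here per gene. The aligner, quantifier, their versions and the strand setting were not given in the sources used here. Members and lists were chosen with earlier results of these data known. Levels are log2(TPM + 0.1), and a gene was detected at 1 TPM or more in every library. Expected counts were rounded and tested with edgeR 4.0.16 in R 4.3.3 for variation between libraries beyond that of genes of similar level. This was goodness of fit to a common level, with TMM scaling, a low-count filter and an adjusted p threshold of 0.05. DESeq2 1.42.0 was an alternative. The test was checked on simulated counts. Rows that name no gene held 1.39%, 0.288% and 0.283% of counts and were left out. Python 3.11.15 with pandas 2.3.3 computed the rest.

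Genes were named by rule: in each complex the 3 highest and 2 lowest by mean TPM, all alternative forms, members under 0.1 TPM, the 4 highest and 4 lowest ratios between tables, the 5 highest retained-intron shares, and in each list the 3 highest and the lowest. A gene that this rule names in complex I is not reported here, though it stays in the counts and medians. Other genes were named for their role or as examples after their values were seen. A symbol in the complex I assembly list, Coa1, was not matched. No respiratory chain genes were called between libraries, so none was named for that. Alternatives were the read-based tables, other pseudocounts and thresholds, expected counts, CPM, coding transcripts only (chosen after seeing the data) and leaving out each library.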

Additional observations from a re-analysis of the deposited data

How the results depend on the processing

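No paired analysis was possible because all libraries belong to 1 condition. The count of 74 genes detected was 48 at a threshold of 5 TPM and 76 at 0.5 TPM, 81 by the read-based tables, 68 by coding transcripts only, and 74 to 76 with a library left out. Medians in log2(TPM + pseudocount) for complexes I, II, III, IV and V were 3.58, 4.64, 3.24, 3.59 and 4.06 by the read-based tables, and 1.72, 2.81, 2.21, 1.12 and 2.16 by coding transcripts only, chosen after seeing the data. The mean over genes gave 2.57 for I, 3.00 for III, 1.26 for IV and 3.23 for V, a pseudocount of 1 gave 3.05 for I, and genes of 0.1 TPM or more gave 2.74 for IV. Relative to complex I, complex II was higher by 1.07 (read-based), 1.20 (mean), 1.09 (coding) and 2.08 (CPM), and complex V by 0.48 (read-based), 0.75 (pseudocount of 1), 0.66 (mean) and 0.44 (coding). Complex III minus I was -0.33 (read-based), and turned positive at 0.44 (mean), 0.50 (coding) and 0.081 (CPM). Complex IV minus I turned positive at 0.016 (read-based), and was -1.30 (mean), -0.14 (genes of 0.1 TPM or more) and -1.29 (CPM). The cause of these reversals was not tested.

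The share of protein-coding signal was 0.124% by expected counts and 0.430% by the read-based tables. Retained-intron shares by expected counts were 48.5% for I, 14.8% for II, 48.6% for III, 54.2% for IV and 49.1% for V. The read-based tables gave 41.3% for I and 35.3% for III, and medians over genes were 41.1% for I, 0% for II, 12.6% for III and 52.4% for IV. With 3 libraries, leaving out a library cannot shift a mean beyond the spread (SD) between libraries, so this alternative could not show instability. Under every alternative 0 members were called as varying. Of 87 single gene levels, 67 moved beyond the spread between libraries with the read-based tables. Rescaling to nuclear protein-coding genes moved 0. It was set back to the mean total of the libraries, so it could hardly change a mean level. Low counts limit the smallest genes, of which 36 had a mean of 50 expected counts or fewer.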
